A study of Mus musculus with 18 samples.

Results

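Gene expression in cultured mouse cortical astrocytes was followed here through 10 genes, Amy1, Igflr1, Gm20605, Snhg11, Rtel1, Cpeb1, Sectm1a, Slc43a3, Stc1 and Cdh13. They were chosen by their levels at 3 days, as genes whose libraries with the receptor hM3Dq lay apart from those with the control protein mCherry, out of 22078 genes in the count tables. The 3-day values of these 10 genes are therefore a description, given without a test. The working name of the set, late hM3Dq genes, was not borne out by the main test across genes: with all 6 libraries at 3 days edgeR called 0 of 12807 tested genes at an adjusted p below 0.05 (lowest adjusted p = 0.126, and 1540 genes at an unadjusted p below 0.05). That count moved with the test and with 1 library. DESeq2 called 140 of 12965 genes with all 6 libraries, and edgeR 1257 of 12929 without the control library mCherry 3. The set is called below the 10 genes separated at 3 days.

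The study used designer receptors (DREADDs), muscarinic receptors altered to answer the synthetic ligand deschloroclozapine (DCZ). Cells received a plasmid by a lipid reagent and, 7 days later, 8 µM DCZ for 90 min. At 90 min there were 4 groups, with hM4Di, hM3Dq, rM3Ds or the control protein EGFP. At 3 days, after culture in medium without DCZ, there were 2 groups, with hM3Dq or mCherry. Every group had 3 libraries and every group received DCZ, the controls included. A group with a receptor and no DCZ was not part of the design, so the effect of stimulation and that of carrying the receptor cannot be told apart. The control protein, the time and the count table all change together between the 2 times, so they cannot be told apart either. The labels give no promoter for the plasmids and no share of cells that took them up, and they do not say that libraries came from separate cultures, so p-values measure only the spread between libraries.

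The receptor hM3Dq couples to Gq, rM3Ds to Gs and hM4Di to Gi. Gq signalling raises intracellular calcium, to which astrocytes answer with a wave of immediate-early transcription factors and, after these, with slower changes in genes of many functions. The 10 genes belong to no single pathway: they encode a starch-digesting enzyme, a receptor, 2 noncoding or read-through RNAs, a telomere helicase, a regulator of messenger RNA translation, an immune ligand, a nucleobase transporter, a secreted hormone and a cadherin.

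Total counts were 16.1 to 25.2 M per library at 90 min and 16.6 to 19.7 M at 3 days, so that 3 counts in a library correspond to 0.119 to 0.187 CPM (counts per M counts of the library). Levels below are in CPM, as mean ± SD over n = 3 libraries, and differences are log2 fold changes ± SE from edgeR. At 90 min EGFP 1, rM3Ds 2 and rM3Ds 3 stood apart from the other 9 libraries on a principal component with 52.7% of the variance, and the summed level of a cell cycle list was 243 to 406 CPM in them against 37.4 to 132 CPM in the other 9. At 3 days the library apart was mCherry 3, on a component with 56.5% of the variance and with 1.83% of its counts in 81 ribosomal protein genes against 3.48 to 4.19% in the other 5 libraries. The 10 astrocyte markers summed to 489 to 1050 CPM over all libraries and none was at or below 3 counts throughout a group, although Gfap averaged only 2.05 to 3.23 CPM at 3 days. A fibroblast and mural list summed to 1967 to 3524 CPM, above the astrocyte list in each library. At 3 days 7 of 8 microglial, 7 of 9 neuronal, 4 of 8 oligodendrocyte-lineage and 4 of 7 endothelial markers were at or below 3 counts in every library. In bulk RNA fewer cells of a type and less RNA per cell cannot be told apart.

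At 3 days 6 of the 10 genes lay lower and 4 lay higher with hM3Dq than with mCherry, with no overlap between the libraries of the 2 groups. Nothing is read from that count, because the rule used it: over all 12807 tested genes 25.5% did not overlap between the groups, 9.32% higher and 16.2% lower with hM3Dq. In the order of the genes by p the 10 held places 2, 3, 6, 7, 8, 9, 11, 17, 18 and 156, the last being Stc1. These places, and the shares of genes with larger fold changes below, come from the 3-day values that chose the genes. They describe the choice and are no test of it. The nearest genes of that order outside the set were Egr3 at place 1, Igfbp3 at 4 and Nr4a3 at 5, with fold changes of -0.86 for Igfbp3 and 1.76 for Nr4a3, while Egr3 was listed at 0 in the 3 hM3Dq libraries and at 3.20 to 5.18 CPM with mCherry. A larger absolute fold change than that of Igflr1 was found in 0.312% of tested genes, and than that of Cdh13 in 8.43%. The median absolute log2 fold change of all genes was 0.15.

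**Figure D1:**
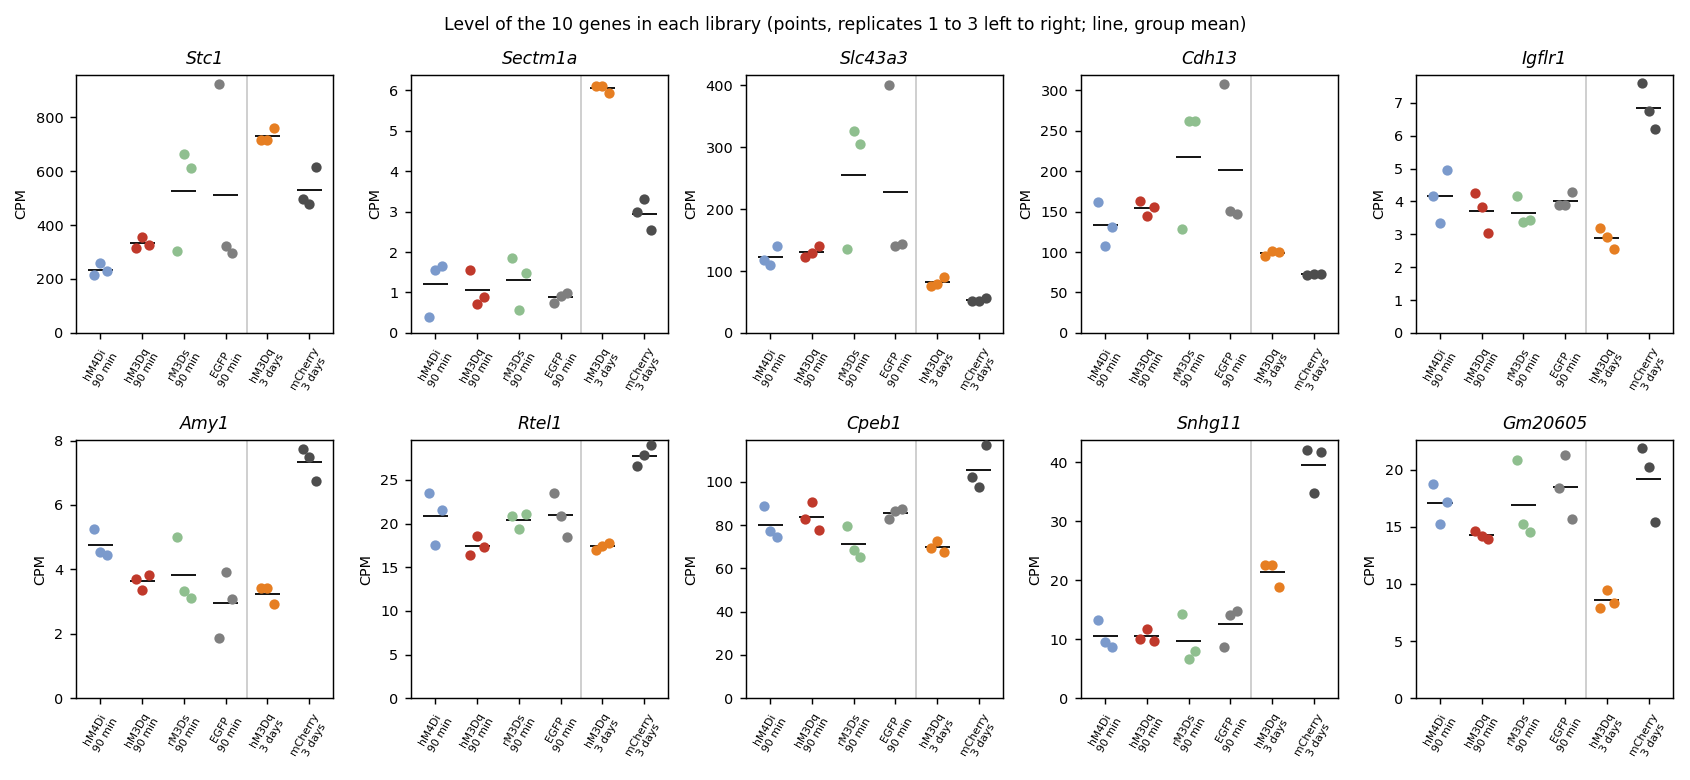
Level of each of the 10 genes in CPM (y axis, from 0) in every library of the 6 groups (x axis). Points are libraries, replicates 1 to 3 from left to right, and the line is the group mean. At 3 days the hM3Dq and mCherry points do not overlap in any panel, while the 3 libraries that stood apart at 90 min show in the panels of Slc43a3, Stc1 and Cdh13.

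Of the 6 genes that lay lower, Amy1 (Entrez 11722) encodes an amylase, the enzyme that cleaves starch and glycogen. At 3 days its level was 3.42, 3.42 and 2.92 CPM with hM3Dq and 7.73, 7.49 and 6.74 CPM with mCherry. The log2 fold change was -1.15 ± 0.15, or 2.21-fold lower, and the nearest libraries of the groups were 1.97-fold apart. At 90 min Amy1 averaged 3.63 ± 0.24 CPM in the hM3Dq libraries, 2.96 ± 1.03 CPM in those with EGFP, 3.82 ± 1.04 CPM in rM3Ds and 4.75 ± 0.45 CPM in hM4Di. The mCherry libraries were thus the highest of all 18, and the hM3Dq libraries at 3 days lay among those of hM3Dq and EGFP at 90 min. Amy2b, the pancreatic amylase gene, was listed at 0.

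Igflr1 (Entrez 101883) encodes a receptor related to the tumour necrosis factor receptors that binds IGF-like proteins. Its level at 3 days was 3.18, 2.91 and 2.54 CPM with hM3Dq and 7.61, 6.74 and 6.22 CPM with mCherry. The difference was -1.22 ± 0.16 on the log2 scale, or 2.32-fold lower, with the nearest libraries 1.96-fold apart. All 4 groups at 90 min averaged 3.66 to 4.16 CPM and overlapped one another. As for Amy1 the mCherry group was highest, and here the hM3Dq group at 3 days had the lowest mean. Of its neighbours within 3000 bases Psenen, a subunit of gamma-secretase, lay on the other side (0.46 ± 0.19). It was at 76.7, 77.5 and 69.2 CPM with hM3Dq and 61.9, 65.1 and 38.4 CPM with mCherry, the lowest in mCherry 3. U2af1l4 (0.19 ± 0.28) and Kmt2b (-0.16 ± 0.11) differed by less and overlapped between the groups. U2af1l4 was at 9.22 CPM in mCherry 3 against 20.3 and 20.1 CPM in mCherry 1 and 2.

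Gm20605 (Entrez 100316903) is annotated as a noncoding read-through transcript, with the synonym Lrch4-sap25. It overlaps Lrch4, whose start it shares, and Sap25. At 3 days it lay at 7.93, 9.45 and 8.34 CPM with hM3Dq and at 21.9, 20.3 and 15.4 CPM with mCherry. This is a log2 difference of -1.13 ± 0.16, or 2.19-fold lower, with the nearest libraries 1.63-fold apart, and it was -1.27 without mCherry 3, the lowest of the control libraries. Gm20605 differed from Amy1 and Igflr1 in where its control level lay: mCherry, at 19.2 ± 3.37 CPM, overlapped EGFP at 90 min, at 18.5 ± 2.79 CPM, and hM3Dq at 3 days was below all other 15 libraries.

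Lrch4, a leucine-rich repeat protein gene, did not share this difference. Its level at 3 days was 25.5, 25.4 and 26.7 CPM with hM3Dq and 30.3, 21.2 and 23.1 CPM with mCherry, and the groups overlapped (0.09 ± 0.14). The ratio of Gm20605 to Lrch4 counts was accordingly 0.311, 0.372 and 0.312 with hM3Dq and 0.723, 0.955 and 0.669 with mCherry. At 90 min the ratio was 0.433, 0.381 and 0.494 with hM3Dq and 0.302, 0.558 and 0.412 with EGFP, which overlapped. Sap25 was low, at 0.141, 0.0939 and 0 CPM with hM3Dq and 0.315, 0.555 and 0.194 CPM with mCherry at 3 days. There 3 counts correspond to 0.152 to 0.181 CPM. Sap25 thus lay lower with hM3Dq, as did Gm20605, but on few counts, and it was not among the tested genes. How reads of the shared exons were divided between the genes is not given in the sources used here, so the split between Gm20605 and Lrch4 is uncertain.

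**Figure D2:**
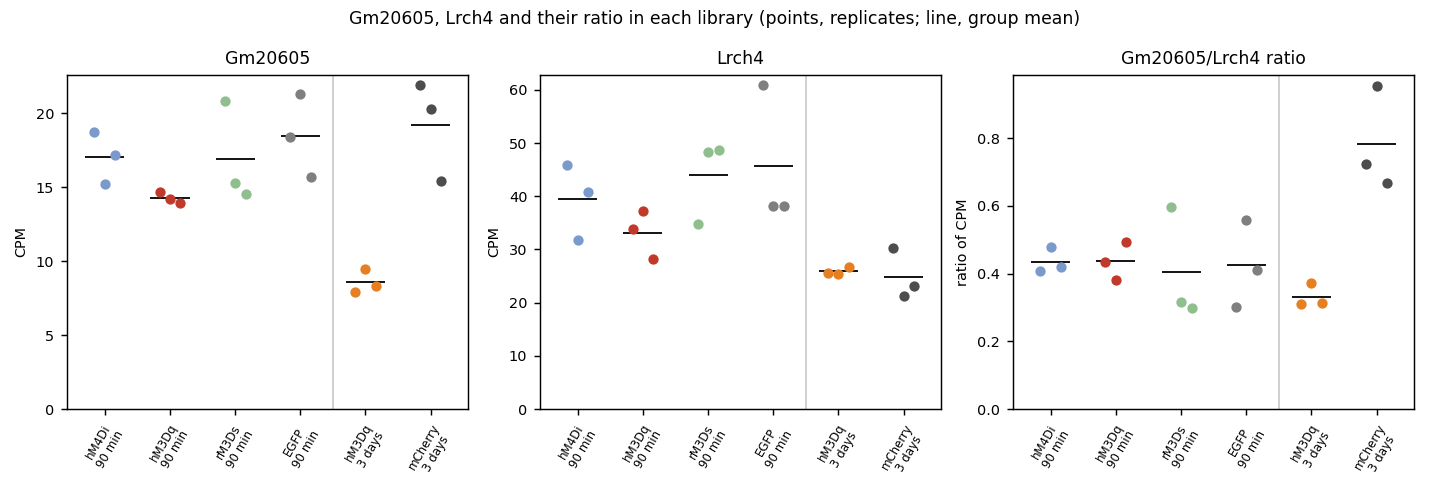
Gm20605 level, Lrch4 level (both in CPM) and the ratio of their counts (no unit) in each library of the 6 groups. Points are libraries and lines are group means. At 3 days the ratio lies between 0.311 and 0.372 with hM3Dq and between 0.669 and 0.955 with mCherry, while the Lrch4 levels of the 2 groups overlap.

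The upstream sequences of the genes lower by more than 2-fold are shown because these 3 genes differed most at 3 days and were looked up for motifs of activity-dependent factors. They are the 250 bases before the annotated start, 5′ to 3′ on the gene's strand, from RefSeq on GRCm38.p6, which is not the mm39 build of the count tables. RefSeq windows were found for 6 of the 10 genes, 7 windows in all, and not for Sectm1a, Slc43a3, Stc1 and Cdh13. The first 20 bases after the start were found in a GENCODE transcript of the same gene, except for Gm20605 and Rtel1. Capitals mark a GC box, a CCAAT box or a TATA box on either strand. Gm20605 starts after chr5:137628873-137629122 on the + strand, Igflr1 after chr7:30565177-30565426 on the + strand, and Amy1 has 2 starts on the - strand, before which lie chr3:113577751-113578000 and chr3:113574763-113575012.
Gm20605: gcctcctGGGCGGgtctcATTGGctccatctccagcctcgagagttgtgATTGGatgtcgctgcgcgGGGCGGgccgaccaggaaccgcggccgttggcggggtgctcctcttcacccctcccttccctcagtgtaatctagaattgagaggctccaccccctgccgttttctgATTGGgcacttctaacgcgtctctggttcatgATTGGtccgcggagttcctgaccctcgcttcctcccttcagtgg
Igflr1: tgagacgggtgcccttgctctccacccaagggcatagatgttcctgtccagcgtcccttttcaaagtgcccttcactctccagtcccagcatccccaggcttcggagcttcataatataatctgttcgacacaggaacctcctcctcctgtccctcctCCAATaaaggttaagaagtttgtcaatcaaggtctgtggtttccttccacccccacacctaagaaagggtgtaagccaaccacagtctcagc
Amy1, first start: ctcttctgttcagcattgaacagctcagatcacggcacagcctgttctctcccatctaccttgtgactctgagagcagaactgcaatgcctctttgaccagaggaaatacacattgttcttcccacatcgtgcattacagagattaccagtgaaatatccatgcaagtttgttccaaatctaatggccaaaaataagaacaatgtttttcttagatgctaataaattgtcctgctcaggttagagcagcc
Amy1, second start: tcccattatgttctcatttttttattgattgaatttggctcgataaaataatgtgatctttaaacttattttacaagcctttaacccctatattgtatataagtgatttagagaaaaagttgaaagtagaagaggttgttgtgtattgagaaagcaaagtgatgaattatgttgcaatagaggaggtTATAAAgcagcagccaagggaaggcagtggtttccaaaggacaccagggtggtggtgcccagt

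The window of Gm20605 is also that of Lrch4, holds 2 GC boxes and 4 CCAAT boxes and has 61.6% G or C, whereas the Amy1 windows have 42.4 and 36.0% and a TATA box in the second only. Over the 7 windows the cAMP response element TGACGTCA was in none and in 1.55% of the 32841 mouse promoters of the same table, and the E-box CACGTG was in none and in 6.02%. The AP-1 site TGANTCA was in that of Rtel1 (6.75% of all) and the Egr site GCGNGGGCG, which overlaps GC boxes there, in that of Cpeb1 (4.7%). The GC box GGGCGG was found for Cpeb1, Gm20605 and Rtel1 (32.7%), CCAAT for Gm20605 and Igflr1 (33.9%), and TATAAA for Amy1 and Cpeb1 (12.4%). The NFAT core GGAAA was in windows of Amy1, Igflr1 and Rtel1 and in 55.6% of all promoters. A match is a description of letters, and both strands were read.

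Snhg11 (Entrez 319317) is a long noncoding RNA gene that hosts small nucleolar RNAs. It lay at 22.6, 22.7 and 18.8 CPM with hM3Dq and at 42.1, 34.7 and 41.8 CPM with mCherry at 3 days, a difference of -0.86 ± 0.12, or 1.81-fold lower. Its 4 group means at 90 min were 9.65 to 12.5 CPM, so both 3-day groups were above all 90-min libraries. The annotated snoRNAs within it are not in the tables.

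Rtel1 (Entrez 269400), a helicase that unwinds DNA structures at telomeres, lay at 17.0, 17.4 and 17.8 CPM with hM3Dq and at 26.6, 27.8 and 29.0 CPM with mCherry. The difference was -0.64 ± 0.09, or 1.56-fold lower, and the 3 libraries of each group were close together. At 90 min hM3Dq stood at 17.4 ± 1.11 CPM, as at 3 days (17.4 ± 0.407 CPM), and the other 3 groups averaged 20.5 to 21.0 CPM, so mCherry was again the highest group. Its neighbour Arfrp1, within 3000 bases, differed by -0.15.

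Cpeb1 (Entrez 12877) binds the untranslated ends of messenger RNAs and controls their poly-A tails and translation. Its level was 69.2, 72.6 and 67.8 CPM with hM3Dq and 102, 97.6 and 117 CPM with mCherry at 3 days, a difference of -0.57 ± 0.10, or 1.48-fold lower. It was -0.49 without mCherry 3, the highest control library. The 90-min groups averaged 71.1 to 85.6 CPM, below mCherry. Of its relatives Cpeb2 also lay lower in all hM3Dq libraries at 3 days (-0.44 ± 0.18). It was at 53.2, 57.4 and 52.6 CPM with hM3Dq and at 64.5, 62.4 and 99.2 CPM with mCherry, the highest in mCherry 3. At 90 min Cpeb2 was higher with hM3Dq than with EGFP (0.51 ± 0.17, edgeR adjusted p = 0.413). Cpeb3 (-0.17) and Cpeb4 (-0.12) differed by less at 3 days.

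Of the 4 genes that lay higher, Sectm1a (Entrez 209588), a mouse relative of the human immune ligand SECTM1, had the highest fold change. Its level was 6.09, 6.10 and 5.94 CPM with hM3Dq and 2.98, 3.32 and 2.55 CPM with mCherry, a difference of 1.06 ± 0.16, or 2.09-fold higher. The 12 libraries at 90 min held 0.396 to 1.84 CPM, so Sectm1a was above them in both 3-day groups. At those levels the counts per library are few and the folds at 90 min imprecise. Its paralog Sectm1b was near the floor.

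Slc43a3 (Entrez 58207) encodes a transporter of purine nucleobases, in a family whose other members carry amino acids. It lay at 76.5, 79.2 and 89.9 CPM with hM3Dq and at 50.8, 51.1 and 56.8 CPM with mCherry, a difference of 0.66 ± 0.10, or 1.58-fold higher. All 6 values were below every library at 90 min, where the lowest was 109 CPM. Slc43a1 (0.07) and Slc43a2 (0.04) overlapped between the groups at 3 days.

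Cdh13 (Entrez 12554), or T-cadherin, is a cadherin held to the membrane by a lipid anchor. It lay at 94.6, 101 and 100.3 CPM with hM3Dq and at 71.1, 73.0 and 73.0 CPM with mCherry, a difference of 0.47 ± 0.08, or 1.39-fold higher. Like Slc43a3 it was lower in both 3-day groups than in all 12 libraries at 90 min.

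Stc1 (Entrez 20855) encodes stanniocalcin, a secreted glycoprotein hormone known for its part in calcium and phosphate balance. Its level was 715, 717 and 759 CPM with hM3Dq and 498, 478 and 616 CPM with mCherry, a difference of 0.49 ± 0.11, or 1.40-fold higher. The nearest libraries were only 1.16-fold apart, the narrowest gap of the 10 genes, and the difference was 0.61 without mCherry 3. The hM3Dq group at 3 days had the highest mean of the 6 groups, although EGFP 1 at 90 min, with 923 CPM, exceeded each of its libraries. Stc2 did not share the difference (-0.09).

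**Figure D3:**
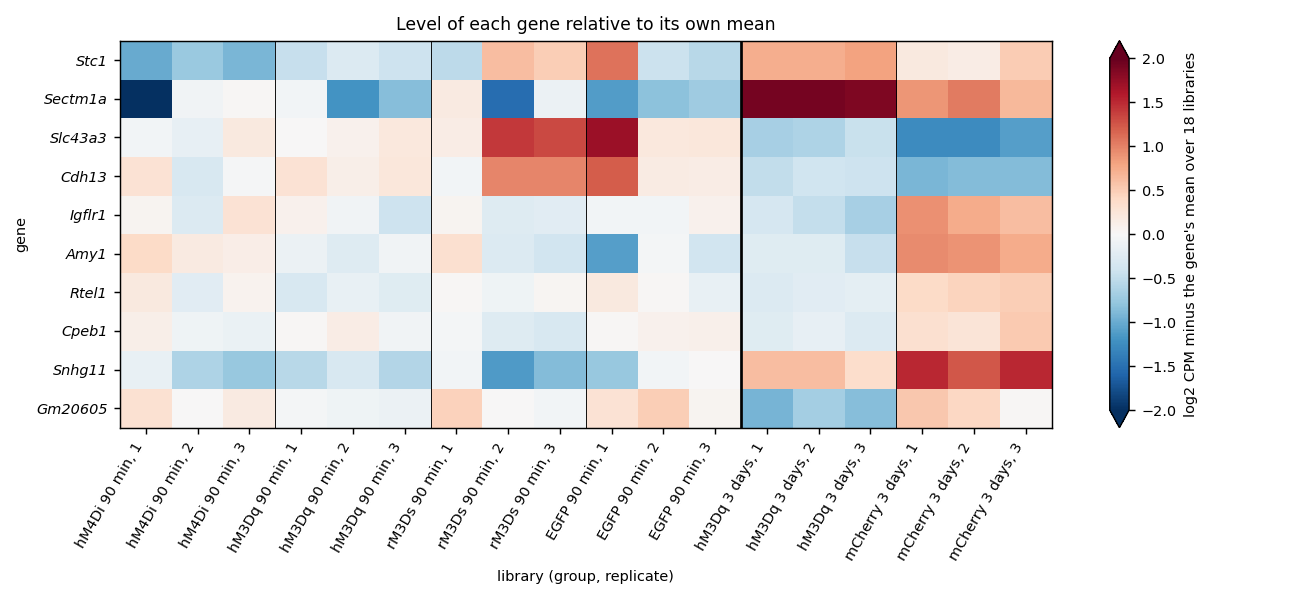
Level of each gene in each of the 18 libraries, as log2 CPM minus the gene's own mean over the libraries (color scale in log2 units). Columns are libraries by group and replicate and rows are genes. The 3-day columns of mCherry are high for Amy1, Igflr1, Snhg11, Rtel1 and Cpeb1, and EGFP 1, rM3Ds 2 and rM3Ds 3 are high for Slc43a3, Stc1 and Cdh13.

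The number of genes called at 3 days changed with the library mCherry 3 and with the test. Without mCherry 3 edgeR called 1257 of 12929 genes (9.72%). DESeq2, with all 6 libraries, called 140 of 12965 genes (1.08%). The fold changes of the 10 genes without mCherry 3 were -1.20 for Amy1, -1.28 for Igflr1, -1.27 for Gm20605, -0.82 for Snhg11, -0.61 for Rtel1 and -0.49 for Cpeb1, and 0.97 for Sectm1a, 0.71 for Slc43a3, 0.61 for Stc1 and 0.48 for Cdh13. Relative to the other mCherry libraries mCherry 3 held 0.732 times the Gm20605 level and 1.26 times the Stc1 level, and lay between these for the other 8 genes. The summed cell cycle list was 27.6 to 74.4 CPM with mCherry and 32.0 to 40.1 CPM with hM3Dq at 3 days. The neuronal list summed to 137 to 172 and 118 to 123 CPM, but 7 of its 9 genes were at or below 3 counts in both groups, leaving Map2 and Gad2. The highest sum of each list was that of mCherry 3. The part of these lists in the differences was not tested.

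The next comparison asked whether the same 10 genes already differed at 90 min, in libraries the choice did not use. None of the 10 was called with hM3Dq against EGFP, where edgeR called 107 of 13584 genes (0.788%), 103 higher (0.758%) and 4 lower (0.0294%), and 66 genes with the replicate number as a block. Adjusted p-values of the 10 genes ran from 0.639 to 0.999, and none had an unadjusted p below 0.05. The fold changes were above 0 for 3 genes and below 0 for 7, and 5 of 10 were on the side of 0 they had at 3 days. This count was 8 of 10 without EGFP 1, where Stc1, Cdh13 and Cpeb1 changed side with values of 0.15, 0.10 and -0.0092, and it ran from 4 to 8 with 1 library left out. A p that misses the threshold does not show that these genes were alike at 90 min: the SE was 0.10 for Cpeb1 and 0.57 for Sectm1a.

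For the genes lower at 3 days, the fold changes at 90 min were 0.35 ± 0.28 for Amy1, -0.07 ± 0.21 for Igflr1 and -0.34 ± 0.16 for Gm20605 (edgeR adjusted p = 0.871, 0.983 and 0.639). They were -0.22 ± 0.29 for Snhg11, -0.24 ± 0.13 for Rtel1 and 0.00 ± 0.10 for Cpeb1 (0.962, 0.727 and 0.999). Without EGFP 1 the values of Amy1, Snhg11 and Rtel1 were 0.10, -0.42 and -0.13. Gm20605 came closest to the threshold of the 10 genes, with an unadjusted p of 0.0535, and its libraries did not overlap: 14.7, 14.2 and 13.9 CPM with hM3Dq and 18.4, 21.3 and 15.7 CPM with EGFP. Of the 2061 genes that lay lower without overlap at 3 days, 226 (11%) also did at 90 min, which is 1.78% of the 12726 genes tested at both times, and of those that lay higher 7.67% did, so the single such gene among the 6 is near the background. Lrch4 lay lower as well at 90 min (-0.44 ± 0.22, adjusted p = 0.68), at 33.8, 37.3 and 28.2 CPM with hM3Dq and 60.9, 38.1 and 38.1 CPM with EGFP.

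For Slc43a3, Stc1 and Cdh13, which lay higher at 3 days, the 90-min values turned on EGFP 1. Slc43a3 lay at 123, 129 and 140.7 CPM with hM3Dq and at 399.9, 140.9 and 143 CPM with EGFP, a fold change of -0.78 ± 0.42 (edgeR adjusted p = 0.719), and of -0.07 without EGFP 1. Stc1 lay at 314, 356 and 326 CPM with hM3Dq and at 923, 321 and 295 CPM with EGFP (-0.60 ± 0.42, adjusted p = 0.820), and was 0.15 without EGFP 1. Cdh13 lay at 163, 144 and 156 CPM with hM3Dq and at 308, 150.3 and 147 CPM with EGFP (-0.36 ± 0.33, adjusted p = 0.914), and was 0.10 without EGFP 1. All 3 genes were thus high in a single control library, and the other control libraries were close to those with hM3Dq. Sectm1a averaged 1.06 ± 0.449 CPM in the hM3Dq libraries and 0.885 ± 0.128 CPM in the EGFP libraries (0.29 ± 0.57, adjusted p = 0.972). Its fold change was 0.19 without EGFP 1 and -0.11 without hM3Dq 1. Groups did not overlap for Gm20605 and Slc43a3, both lower, against 15.5% of all genes (6.06% higher and 9.44% lower).

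The same 3 genes were high in the rM3Ds libraries that stood apart. Slc43a3 was at 135 CPM in rM3Ds 1 and at 326 and 305 CPM in rM3Ds 2 and 3. Stc1 was at 302, 663 and 610.3 CPM and Cdh13 at 128, 262 and 262 CPM in the same order. Over the 3 libraries apart Slc43a3 ranged from 305 to 399.9 CPM against 109 to 143 CPM in the other 9, and Stc1 from 610.3 to 923 against 214 to 356 CPM. Amy1 and Snhg11 lay on the other side: EGFP 1 held 0.537 times the Amy1 level and 0.600 times the Snhg11 level of the other EGFP libraries. The part of the cell cycle genes, which were highest in these 3 libraries, was not tested.

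The other receptors share the EGFP libraries with hM3Dq, so their comparisons are not independent of it. With rM3Ds edgeR called 2 of 13584 genes (0.0147%) and none of the 10, each with an adjusted p of 1.00. The fold changes ran from -0.39 for Snhg11 to 0.54 for Sectm1a, and 9 of 10 were on the side of 0 the gene had with hM3Dq at 3 days. These values moved with the libraries apart: without all 3 of them 3 of 10 were on that side, Snhg11 was -0.034 and Sectm1a 0.93. With 1 library left out the count ran from 6 to 9, Snhg11 from -0.76 (without rM3Ds 1) to -0.17 (without rM3Ds 2), and Sectm1a from 0.21 (without rM3Ds 1) to 0.91 (without rM3Ds 2). Only Cpeb1 did not overlap, at 79.4, 68.4 and 65.4 CPM with rM3Ds and 82.8, 86.5 and 87.3 CPM with EGFP (-0.28 ± 0.10, unadjusted p = 0.0192 by edgeR), against 7.35% of all genes (4.41% higher and 2.94% lower).

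With hM4Di edgeR called 0 of 13584 genes (0%), with 745 at an unadjusted p below 0.05, and 19 by DESeq2. The adjusted p-values of the 10 genes were 0.833 to 0.985. Amy1 lay higher without overlap, at 5.27, 4.55 and 4.44 CPM against 1.88, 3.93 and 3.08 CPM with EGFP (0.68 ± 0.28, unadjusted p = 0.0314 by edgeR). Slc43a3 (-0.93 ± 0.42, unadjusted p = 0.0483 by edgeR) and Stc1 (-1.16 ± 0.42, 0.0193) lay lower without overlap, Stc1 at 214, 259.8 and 229.5 CPM. Here too the values turned on EGFP 1: without it they were -0.21 for Slc43a3, -0.38 for Stc1 and 0.45 for Amy1. Over all genes 8.36% did not overlap, 4.34% higher and 4.01% lower.

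**Figure D4:**
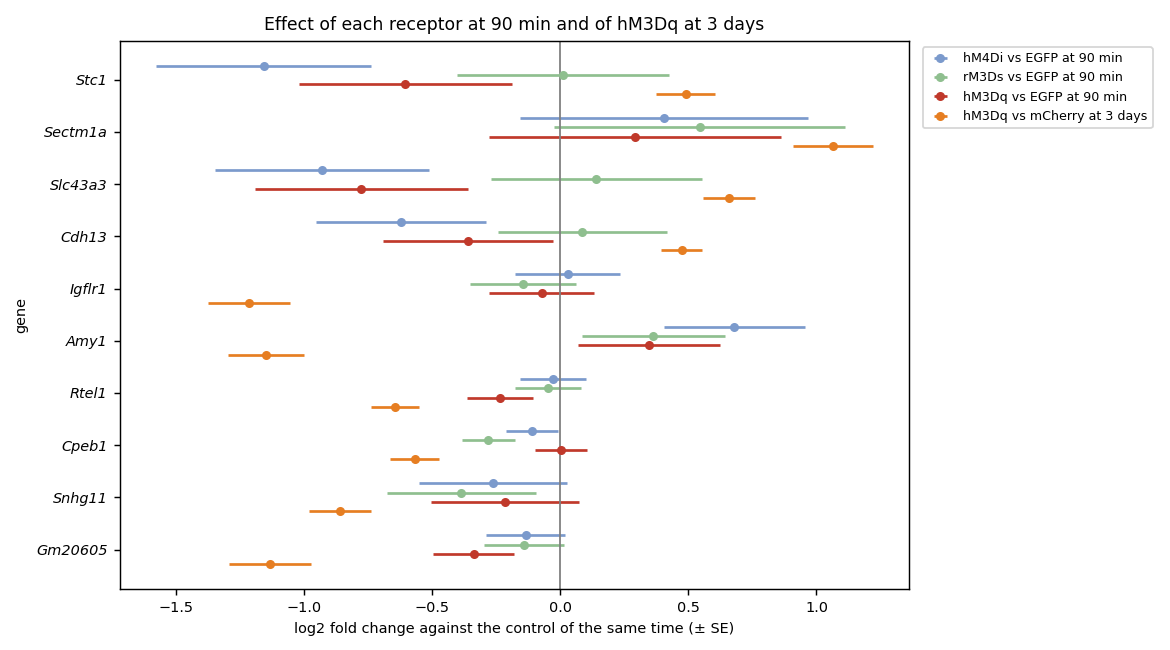
Log2 fold change of each gene (x axis, points with bars of ± 1 SE) for the 3 receptors against EGFP at 90 min and for hM3Dq against mCherry at 3 days. The 3-day points run from -1.22 for Igflr1 to 1.06 for Sectm1a with short bars. The genes were chosen on these 3-day values, which favours short bars there. The 90-min points of Slc43a3, Stc1 and Cdh13 with hM3Dq lie below 0 with bars of 0.33 to 0.42.

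The difference between the times, the hM3Dq effect at 3 days minus that at 90 min, contains the 3-day values that chose the genes and is given without a test. It was -1.49 ± 0.34 for Amy1, -1.14 ± 0.27 for Igflr1 and -0.79 ± 0.22 for Gm20605. For Snhg11, Rtel1 and Cpeb1 it was -0.64 ± 0.25, -0.40 ± 0.16 and -0.56 ± 0.13. On the other side it was 0.78 ± 0.40 for Sectm1a, 1.44 ± 0.47 for Slc43a3, 1.10 ± 0.50 for Stc1 and 0.84 ± 0.33 for Cdh13. Without EGFP 1 it was 0.73 for Slc43a3, 0.34 for Stc1 and 0.38 for Cdh13. In the fit over all genes 53 of 13391 (0.396%) were called. Each effect is set against its own control, and the controls themselves differed between times. The mean with mCherry was 3.08 times that of EGFP 2 and 3 for Sectm1a, 2.73 times for Snhg11, 2.09 times for Amy1, 1.68 times for Igflr1 and 1.04 times for Gm20605, and it was 0.486 times for Cdh13 and 0.373 times for Slc43a3.

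For all 6 genes that lay lower the mCherry group had the highest mean of the 6 groups, with EGFP at 90 min overlapping it for Gm20605. These genes were chosen with mCherry above hM3Dq at 3 days, which favours a high mCherry mean. How many of all genes had mCherry highest was not counted, so nothing is read from this count. For Amy1 and Rtel1 the hM3Dq level at 3 days was within the range of the 90-min group means. It was 3.25 against 3.63 CPM in hM3Dq at 90 min for Amy1, and 17.4 in both for Rtel1. For Igflr1 and Cpeb1 it was below all 90-min group means, at 2.88 against 3.71 CPM for Igflr1 and 69.8 against 83.6 CPM for Cpeb1. For Cpeb1 the 3-day hM3Dq libraries lay below all of hM3Dq and EGFP at 90 min and overlapped those of rM3Ds. Snhg11 was higher in hM3Dq at 3 days, at 21.4 CPM, than in hM3Dq at 90 min, at 10.5 CPM, and Gm20605 was lower, at 8.57 against 14.3 CPM. Whether the mCherry plasmid, the culture time, the separate tables or the choice of the genes set the control levels cannot be told apart.

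By Pearson correlation of log2 CPM over the 18 libraries, among 11839 genes, Slc43a3 and Cdh13 were each the other's closest (r = 0.975, 0.939 over the 12 libraries at 90 min and 0.980 over the 6 at 3 days). Snhg11 was closest to Pnisr, a splicing-related gene (0.983), Sectm1a to Klhl12 (0.932), Stc1 to Calu, a calcium-binding protein of the secretory pathway (0.930), and Cpeb1 to Fnbp4 (0.882). Igflr1 was closest to Ppox, an enzyme of heme synthesis (0.848), Gm20605 to Efcab8 (0.845), Amy1 to Ric8b (0.805) and Rtel1 to Strada (0.803). The 18 points share time, table and the libraries that stood apart. Over the 12 libraries at 90 min r ran from 0.486 for Igflr1 and Ppox to 0.958 for Stc1 and Calu. Over the 6 at 3 days it ran from 0.441 for Sectm1a and Klhl12 to 0.986 for Snhg11 and Pnisr. Klhl12 overlapped between the 3-day groups (0.08 ± 0.09).

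Genes related in function to the 10 were followed by lists, and at 3 days 0 of their members were called, as for all genes. Beside the counts without overlap that follow stand 9.32% higher and 16.2% lower over all genes tested. Of 14 telomere and helicase genes the median log2 fold change at 3 days was -0.15 and 1, Brip1, lay lower without overlap. Of 14 genes of the CPEB and polyadenylation machinery 2, Cpeb2 and Pum2, lay lower (median -0.07). Of 9 stanniocalcin and hypoxia genes Bnip3 and Hk2 lay higher and Ndrg1 and Egln3 lower (median 0.03). The lists of nucleobase transport (12 genes, median 0.06), cadherins (7, 0.02), amylase and glycogen (8, 0.06) and immune ligands and receptors (9, 0.09) each had 1 gene without overlap: Slc29a1 and Cdh6 lower, Pgm1 and Tnfrsf1a higher. The median over all genes was -0.01.

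At 90 min 1 of 10 genes of the stanniocalcin and hypoxia list and 1 of 9 of the amylase and glycogen list rose with hM3Dq, against 0.758% of all genes. Hk2, a hexokinase that starts glycolysis, went from 31.2 ± 2.98 CPM with EGFP to 54.7 ± 5.15 CPM (0.84 ± 0.16, edgeR adjusted p = 0.0388). Pgm2, of the phosphoglucomutase family, went from 33.5 ± 3.68 to 55.7 ± 2.85 CPM (0.77 ± 0.12, adjusted p = 0.0104). The other lists related to the 10 genes had none called with hM3Dq at 90 min. These were 0 of 13 for nucleobase transport, 0 of 15 for telomere and helicase genes and 0 of 14 for CPEB and polyadenylation. Cadherins had 0 of 8 called, and immune ligands and receptors 0 of 9. Of 15 immediate-early genes 13 rose at 90 min (median 2.93, against 0.758% of all genes that rose), among them Fosl1 (3.39 ± 0.16), Atf3 (2.82 ± 0.15), Nr4a2 (3.21 ± 0.18) and Ptgs2 (3.96 ± 0.27). At 3 days the median of the 14 tested was 0.05: Fosl1, Nr4a1, Nr4a2 and Nr4a3 lay higher without overlap and Fos, Egr2 and Egr3 lower, against 25.5% of all genes without overlap in either direction. The immediate-early genes thus differed at 90 min, where none of the 10 genes was called.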

How the data were processed

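RNA was sequenced in 18 libraries of cultured mouse cortical astrocytes after poly-A enrichment, per the labels' protocols. The deposited values are gene-level estimated counts that the authors did not normalise, with 12 libraries (90 min) in 1 table and 6 (3 days) in another. The tools in the submitters' processing notes are Salmon 1.8.0 and fastp 0.23.4, and the build is mm39. Of the values 55.9% and 30.5% were not whole numbers, and all were rounded before testing. Whether counting used strand and how shared exons were split is not given in the sources used here. Symbols were matched from Entrez identifiers (21978 of 22078).

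Comparisons were fitted with edgeR 4.0.16 in R 4.3.3 (quasi-likelihood test, TMM scaling, default filter on low counts), and a gene counted as called where its p, adjusted by Benjamini and Hochberg over the whole table, was below 0.05. At 90 min the 4 groups shared 1 fit (8 residual degrees of freedom), the 3-day groups had their own (4), and the interaction of receptor and time was fitted over both times (8). All 10 genes passed the filter in each fit. The fits were tested on simulated counts. The simulation held no library that stood apart, so it does not bear on the part of such libraries in the results. Alternatives were a replicate block, DESeq2 1.42.0, RLE normalisation, no filter, only the 2 groups compared, each library left out, and the 3 libraries apart left out.

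The genes named were the 10 members, for each the gene most correlated with it (mean log2 CPM of at least 1), relatives and annotated neighbours, and genes of related lists called at 3 days or with hM3Dq at 90 min, at most 4 per list by p. Any other gene named was chosen after its values were seen. The members and lists were chosen with earlier results of these data known.

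Same-numbered libraries were checked for pairing by the correlation of their deviations from the group means. It was 0.130, 0.159 and 0.115 for hM3Dq and EGFP at 90 min and 0.365, 0.101 and 0.299 for hM4Di and EGFP. All were above 0.1, so the numbers were taken to pair these libraries, although hM4Di 2 matched an EGFP library of another number best. The labels do not say what a number marks. The main 90-min fits had no block for the number, and the replicate block was an alternative only. The correlation was -0.753, -0.561 and -0.554 for rM3Ds and EGFP and 0.0196, 0.0106 and 0.0275 at 3 days. For these comparisons the numbers were not taken to pair libraries, although each 3-day hM3Dq library matched the mCherry library of its own number best. The 3-count floor covers counting error only. Upstream sequences came from RefSeq (GRCm38.p6).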

Additional observations from a re-analysis of the deposited data

Results flagged for a closer look

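Slc43a3 moved to opposite sides of its control at the 2 times. With hM3Dq every library at 90 min lay below every EGFP library and every library at 3 days lay above every mCherry library, and the difference between the effects was 1.44 on the log2 scale. This difference was not tested, because the gene was chosen on its 3-day values. The gap at 90 min was 1.001-fold between the nearest libraries, 140.7 CPM with hM3Dq and 140.9 CPM with EGFP, and without EGFP 1 the fold change there was -0.07 and the difference between the effects 0.73.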

How the results depend on the processing

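The direction of the 3-day fold changes, and of the differences between times that contain them, was fixed by the choice of the genes and is no sign of stability. Their size moved by less than 1.5 times at 3 days, while without EGFP 1 the differences between times were 0.73 for Slc43a3, 0.34 for Stc1 and 0.38 for Cdh13, against 1.44, 1.10 and 0.84. Counts of called genes moved, and the cause was not tested. At 3 days DESeq2 called 140 genes and edgeR without a filter 1, against 0, and leaving out 1 library gave 0 to 1257, the last without mCherry 3. For hM3Dq at 90 min the count of 107 became 66 with the replicate block and 226 with DESeq2, and 50 to 103 with 1 library left out. For rM3Ds the count of 2 became 4 with the replicate block, 61 with DESeq2, 0 without the 3 libraries apart, 0 with only the 2 groups, and 2 to 115 with 1 library left out, the last without rM3Ds 1. For hM4Di DESeq2 called 19 against 0. For the difference between times 53 became 28 to 170, the last without EGFP 1. The replicate block changed no call of the 10 genes, and none of them was called at 90 min under any alternative. For rM3Ds and at 3 days the shared numbers were not taken to pair libraries, and the block at 3 days called 0 genes.

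Of the 90-min fold changes under alternatives, 13 of 120 with hM3Dq, 19 of 120 with rM3Ds and 4 of 120 with hM4Di changed side, the cause not tested. With hM3Dq and 1 library left out, Igflr1 ran from -0.19 to 0.066, Sectm1a from -0.11 to 0.51, Stc1 from -0.89 to 0.15, Cdh13 from -0.55 to 0.10 and Cpeb1 from -0.055 to 0.063. Without the 3 libraries apart Stc1 was 0.15, Cdh13 0.091 and Cpeb1 -0.017, and Cpeb1 was -0.00041 with the replicate block, -0.0020 with DESeq2 and -0.0016 with RLE. With rM3Ds and without the 3 libraries apart Igflr1 was 0.024, Gm20605 0.16, Rtel1 0.084, Slc43a3 -0.075, Stc1 -0.033 and Cdh13 -0.22. With 1 library left out Rtel1 ran from -0.14 to 0.068, Slc43a3 from -0.11 to 0.86, Stc1 from -0.28 to 0.78 and Cdh13 from -0.11 to 0.56. With hM4Di Rtel1 was 0.067 without the 3 libraries apart, and with 1 library left out Igflr1 ran from -0.078 to 0.18 and Rtel1 from -0.14 to 0.10. Sectm1a at 90 min and Sap25 are limited by few counts.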
